A study of Mus musculus with 12 samples.

Results

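The genes described here are 35 markers of macrophages, the phagocytes that live in every tissue or enter it from blood monocytes, and they were read from the whole-heart RNA of 12 mice. They were taken as a fixed list of symbols, all 35 were found among the 19938 genes that the arrays could be assigned to, and each had 1 probeset, a set of short probes combined into 1 log2 signal. A group of 5 (*Ccr2*, *Clec7a*, *Aif1*, *Cd14* and *Fcgr1*) had a mean signal below 5.63, the median of all 35557 probesets. No call of detection came with the values, so a low signal here is a low reading and not a proof of absence.

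The study asked whether GATA-4 and GATA-6, related zinc finger transcription factors, have redundant roles in the adult heart. The 5 groups comprised 2 mice that carried the cre transgene beside wild type *Gata4* and *Gata6* (cre), 2 mice with *Gata4* floxed alleles and no cre (*Gata4* floxed), 3 mice with *Gata4* floxed alleles and cre (*Gata4*-deleted), 2 mice with *Gata6* floxed alleles and no cre (*Gata6* floxed) and 3 mice with *Gata6* floxed alleles and cre (*Gata6*-deleted). All were unstressed adults labelled 8 weeks old, and 1 array was run for each heart. The labels name an α-myosin heavy chain transgene as the source of cre and the paper a β-myosin heavy chain transgene, and both promoters drive expression in heart muscle cells, so the deletion was aimed at cardiomyocytes and not at macrophages. The probesets of *Gata4* and *Gata6* cover whole transcripts and did not show the deletion, with 9.25, 9.18 and 9.15 for *Gata4* in the *Gata4*-deleted hearts against 9.26 and 9.23 in the *Gata4* floxed hearts, and 8.98, 9.21 and 9.19 for *Gata6* in the *Gata6*-deleted hearts against 9.09 and 8.69 in the *Gata6* floxed hearts. Array medians lay between 5.61 and 5.66 and correlations between arrays between 0.979 and 0.991. Because whole hearts were read, fewer macrophages and less RNA per macrophage cannot be told apart in any value below. The number of arrays limits the precision throughout.

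Macrophages of the heart are seeded before birth and are renewed in part by monocytes. They depend on the growth factors CSF1 and IL-34, which signal through the receptor CSF1R, and on the lineage factor PU.1 that *Spi1* encodes. They clear dead cells and debris with complement and Fc receptors and digest what they take up in lysosomes, and they detect microbial products with receptors such as CD14. CCR2 marks cells that arrived from the blood, whereas TIMD4, LYVE1 and FOLR2 mark long-lived resident cells in mice.

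As a group, the macrophage markers had their lowest readings in *Gata4*-deleted hearts. For each heart a score was taken as the mean over the 35 genes of the log2 signal minus the gene's mean over 12 hearts. It was -0.18, -0.23 and -0.22 in the *Gata4*-deleted hearts, -0.02 and 0.00 in the cre hearts, 0.12 and 0.29 in the *Gata4* floxed hearts, 0.16 and -0.04 in the *Gata6* floxed hearts, and 0.06, 0.02 and 0.02 in the *Gata6*-deleted hearts. The 3 *Gata4*-deleted hearts were therefore the 3 lowest of 12, and their SD of 0.03 was small against the distance to the next heart, while the pairs of floxed hearts were spread widely (SD 0.12 for *Gata4* floxed, SD 0.14 for *Gata6* floxed). Of the 35 markers, 5, 3 and 0 lay above their own mean in the *Gata4*-deleted hearts, against 30 and 31 in the *Gata4* floxed hearts and 16 to 27 in the other 7 hearts. The second *Gata4* floxed heart had the highest reading of all 12 for 17 markers and the first *Gata6* floxed heart for 11, whereas a *Gata4*-deleted heart had the lowest reading for 24 markers and the highest for 0. With the 5 dim markers left out, the score of the other 30 was -0.19, -0.25 and -0.24 in the *Gata4*-deleted hearts and ran from -0.04 to 0.30 in the rest.

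**Figure D1:**
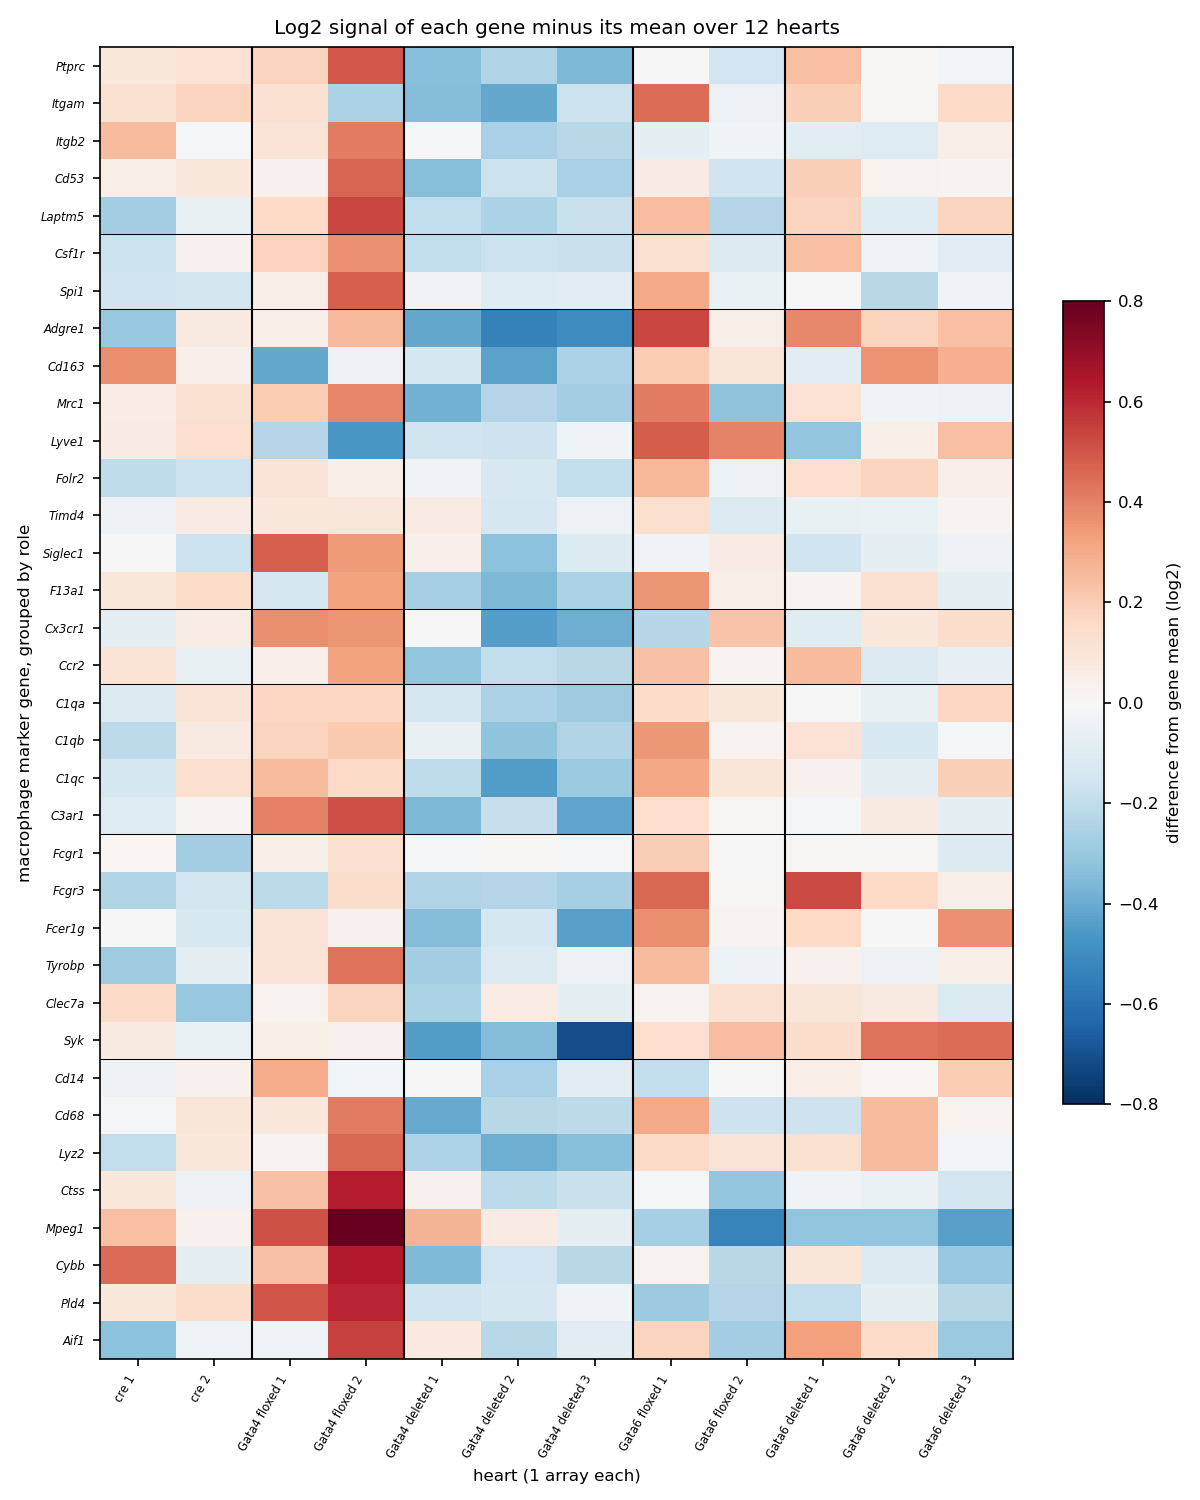
Log2 signal of each of the 35 macrophage markers (rows, grouped by role) minus its mean over 12 hearts, in each heart (columns, grouped by genotype); red is above and blue below the gene's mean, and the colours end at 0.8 on either side. The 3 *Gata4*-deleted columns are blue for all but 5, 3 and 0 genes, and the second *Gata4* floxed heart is the reddest column.

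For 12 of the 35 markers the 3 *Gata4*-deleted hearts had the 3 lowest readings of 12, which held for 1.85% of all probesets. They were *Ptprc*, *Cd53*, *Adgre1*, *F13a1*, *Ccr2*, *C1qa*, *C1qc*, *C3ar1*, *Fcer1g*, *Syk*, *Cd68* and *Lyz2*, so they came from every role except the growth factor receptor and its lineage factor. The markers followed one another across hearts to different degrees. The correlation of a gene with the score of the other 34 over 12 hearts, given as a description of hearts that share groups, was 0.90 for *C3ar1*, 0.88 for *Ptprc* and *Mrc1*, 0.26 for *Cd163*, 0.21 for *Mpeg1* and -0.13 for *Lyve1*.

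The start sites of the marker genes were searched for letters that the macrophage factor PU.1 or the GATA factors can bind. The RefSeq promoter table (GRCm38.p6) held 32 windows for 26 of the 35 genes, each of 250 bases before to 50 bases after a transcript start. The PU.1 core letters GAGGAA, searched on both strands and shared by other ETS factors, were present in 20 of these 32 windows (62.5%), against 28.3% of all 32851 windows in the table. The GATA letters AGATAA, also searched on both strands, were present in 5 of 32 windows (15.6%) against 11.2% of all. Other forms of a GATA site were not searched, so the matches given are partial. The searched letters of both motifs can overlap only at their ends. A match describes the letters and not a bound site. The genes were listed as macrophage markers, and those that read lower were not compared with those that did not. Any part of either motif in the readings was not tested. Shown 5′ to 3′ are the first 280 bases, up to 30 bases after the start, for the 3 markers that passed a test between *Gata4*-deleted hearts and controls and for *Ptprc*, the general leukocyte marker, with GAGGAA in capitals. The windows are chr6:122856128-122856407 on the minus strand for *C3ar1*, chr12:112760405-112760684 on the plus strand for *Pld4*, chr13:52596632-52596911 on the plus strand for the second start of *Syk*, and chr1:138175276-138175555 on the minus strand for the first start of *Ptprc*.
Ptprc: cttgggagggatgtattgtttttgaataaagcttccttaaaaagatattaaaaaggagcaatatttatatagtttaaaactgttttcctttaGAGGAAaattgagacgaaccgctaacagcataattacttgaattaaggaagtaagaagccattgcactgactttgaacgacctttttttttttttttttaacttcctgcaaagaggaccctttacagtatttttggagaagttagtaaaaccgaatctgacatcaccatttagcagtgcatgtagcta
Syk: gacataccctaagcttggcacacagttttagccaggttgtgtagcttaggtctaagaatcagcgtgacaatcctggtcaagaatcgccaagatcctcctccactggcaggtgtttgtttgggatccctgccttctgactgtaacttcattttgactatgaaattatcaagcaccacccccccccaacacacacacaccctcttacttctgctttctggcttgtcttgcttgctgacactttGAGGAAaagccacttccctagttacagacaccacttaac
Pld4: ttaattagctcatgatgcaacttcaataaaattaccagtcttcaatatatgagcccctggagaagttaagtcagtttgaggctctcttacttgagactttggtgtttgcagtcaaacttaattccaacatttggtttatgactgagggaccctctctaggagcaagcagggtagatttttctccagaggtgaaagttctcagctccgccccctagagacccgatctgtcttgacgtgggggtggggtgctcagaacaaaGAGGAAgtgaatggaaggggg
C3ar1: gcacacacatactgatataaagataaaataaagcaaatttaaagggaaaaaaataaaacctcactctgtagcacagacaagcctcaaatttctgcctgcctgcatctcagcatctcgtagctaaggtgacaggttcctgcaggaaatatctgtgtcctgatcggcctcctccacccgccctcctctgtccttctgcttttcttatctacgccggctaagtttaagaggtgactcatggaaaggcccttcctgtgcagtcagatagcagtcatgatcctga
The table holds 1 more window each for *Ptprc* and *Syk*, without GAGGAA, and those with GAGGAA are shown. GAGGAA begins at base -158 from the start in *Ptprc*, at -9 in *Syk* and at 10 in *Pld4*. The *C3ar1* window holds no GAGGAA and has AGATAA at -230 and, on the other strand, at -49.

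Whether loss of *Gata4* changed the markers was first asked against the *Gata4* floxed hearts. Here 2 of 35 markers were lower at an adjusted p under 0.05 (0.0787% of all probesets were) and 0 were higher (0.104% of all probesets). At an unadjusted p under 0.05, 25 markers were lower and 0 higher, against 4.72% and 4.7% of all probesets. The log2 difference was negative for 34 of 35 markers (49.2% of all probesets), with a median of -0.43 where the median of all probesets was 0.00. For 29 markers every *Gata4*-deleted heart read below both *Gata4* floxed hearts (13% of all probesets), and for 1, *Lyve1*, every one read above (12.7%). The median was -0.36 without the second *Gata4* floxed heart, the highest of 12, and -0.57 without the first. Hearts with *Gata4* deleted differ from *Gata4* floxed hearts in cre as well as in *Gata4*. With the cre hearts as the control the median was -0.22 and 0 markers passed, where 139 of all probesets did in either direction. When only the groups compared entered the fit, 0 markers passed. With each probeset tested alone by the methods' t-test, 19 were lower and 0 higher before adjustment, against 4.27% and 3.81% of all probesets. After adjustment 0 markers passed, as did 0.0% of all probesets, so this count says nothing about the markers.

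Against all 6 control hearts, taken as the mean of the cre, *Gata4* floxed and *Gata6* floxed groups, 2 of 35 markers were again lower (0.456% of all probesets) and 0 higher (0.374%), and all 35 differences were negative (49.9% of all probesets). Their median was -0.31. At an unadjusted p under 0.05, 22 markers were lower and 0 higher (6.76% and 5.59% of all probesets), and by the t-test 15 and 0 (4.95% and 4.45%), of which 0 remained after adjustment (0.16%). The 12 markers named above were also those for which every *Gata4*-deleted heart lay below every control heart (3.3% of all probesets). Every *Gata4*-deleted heart lay above every control heart for 0 markers (2.49% of all probesets). That order alone fixes the exact two-sided permutation p of each of the 12 at 0.0238, the smallest that 3 hearts against 6 can give. This p, not adjusted over the 35 markers, therefore restates the order and adds no evidence. Both comparisons share the *Gata4*-deleted and *Gata4* floxed hearts, so they are not separate evidence.

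**Figure D2:**
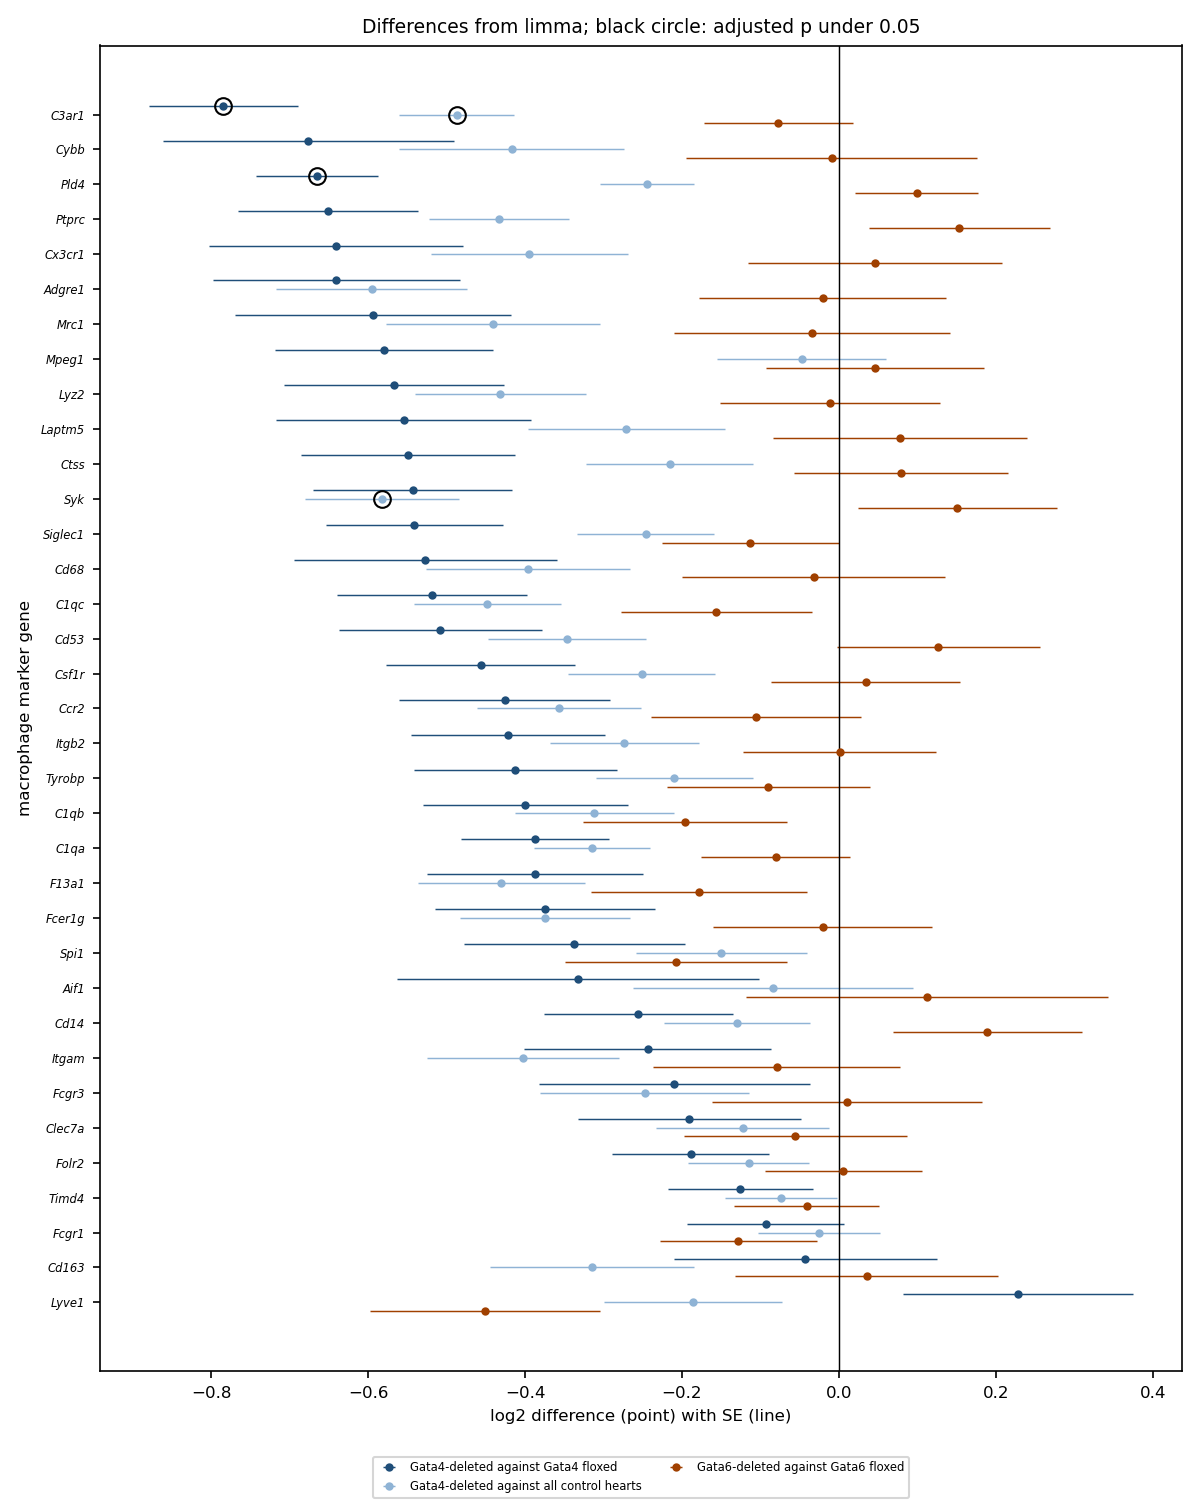
Log2 difference of each macrophage marker (points) with its SE (lines), from limma, for *Gata4*-deleted against *Gata4* floxed hearts (dark blue), *Gata4*-deleted against all 6 control hearts (light blue) and *Gata6*-deleted against *Gata6* floxed hearts (brown), with black circles around points at an adjusted p under 0.05. The dark blue points lie below 0 for 34 of 35 genes with a median of -0.43, and the brown points lie on both sides of 0 with a median of -0.02.

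The leukocyte surface proteins comprised 5 markers, of which 0 passed the test against *Gata4* floxed hearts and 4 were lower at an unadjusted p under 0.05, with differences from -0.65 to -0.24. *Ptprc* encodes CD45, the tyrosine phosphatase on all white blood cells. It read 6.36 and 6.39 in the cre hearts, 6.46 and 6.77 in the *Gata4* floxed hearts, 5.93, 6.04 and 5.92 in the *Gata4*-deleted hearts, 6.28 and 6.12 in the *Gata6* floxed hearts, and 6.52, 6.28 and 6.25 in the *Gata6*-deleted hearts. No other group overlapped with the *Gata4*-deleted hearts, which were the lowest. The difference was -0.65 (SE 0.12, adjusted p = 0.0704) against *Gata4* floxed hearts and -0.43 (SE 0.09, adjusted p = 0.0702) against all controls, neither past the threshold. The other members were *Itgam* and *Itgb2*, which encode the chains of the complement receptor CR3, the tetraspanin *Cd53* and the lysosomal protein *Laptm5*, with differences against all controls of -0.40, -0.27, -0.35 and -0.27. *Ptprc*, *Adgre1* and *Syk* were among the genes that the study itself selected from these same arrays. Their readings here therefore give no independent evidence of how these genes moved. The paper also measured *Ptprc* by qRT-PCR, where it read lower in *Gata4*-deleted hearts than in *Gata4* floxed hearts.

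Of the receptor of the growth factor CSF1 and the lineage factor PU.1, 0 passed and both were lower at an unadjusted p under 0.05. *Csf1r* read 7.77 and 7.98 in the cre hearts, 8.13 and 8.31 in the *Gata4* floxed hearts, 7.75, 7.77 and 7.77 in the *Gata4*-deleted hearts, 8.07 and 7.84 in the *Gata6* floxed hearts, and 8.19, 7.91 and 7.86 in the *Gata6*-deleted hearts. All 3 *Gata4*-deleted hearts lay between 7.75 and 7.77 (SD 0.01) and below both *Gata4* floxed hearts, while one cre heart read the same. The difference was -0.46 (SE 0.12, adjusted p = 0.223) against *Gata4* floxed hearts and -0.25 (SE 0.09, adjusted p = 0.316) against all controls. *Spi1*, the gene of PU.1, read 5.82 and 5.83 in the cre hearts, 6.03 and 6.46 in the *Gata4* floxed hearts, 5.95, 5.88 and 5.89 in the *Gata4*-deleted hearts, 6.28 and 5.92 in the *Gata6* floxed hearts, and 5.98, 5.76 and 5.95 in the *Gata6*-deleted hearts. The cre hearts were here as low as the deleted hearts of either line, and the difference of -0.34 against *Gata4* floxed hearts (SE 0.14, adjusted p = 0.49) turned to 0.0825 with the cre hearts as the control (adjusted p = 0.889).

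The 8 markers of the next role are typical of resident macrophages, and 0 of them passed against *Gata4* floxed hearts, 4 being lower at an unadjusted p under 0.05. *Adgre1* encodes F4/80, the classical surface marker of mouse macrophages. It read 6.57 and 6.94 in the cre hearts, 6.92 and 7.13 in the *Gata4* floxed hearts, 6.46, 6.33 and 6.37 in the *Gata4*-deleted hearts, 7.40 and 6.92 in the *Gata6* floxed hearts, and 7.26, 7.05 and 7.11 in the *Gata6*-deleted hearts. The *Gata4*-deleted hearts were the lowest of 12, with the first cre heart next, and the *Gata6*-deleted hearts were among the highest. The difference was -0.64 (SE 0.16, adjusted p = 0.188) against *Gata4* floxed hearts and -0.60 (SE 0.12, adjusted p = 0.0689) against all controls. *Mrc1*, the mannose receptor, and *Siglec1*, a sialic acid receptor, differed from *Gata4* floxed hearts by -0.59 (adjusted p = 0.288) and -0.54 (adjusted p = 0.125), and *F13a1*, which encodes the A chain of coagulation factor XIII, by -0.39 (adjusted p = 0.391). The haemoglobin scavenger receptor *Cd163* and the folate receptor *Folr2* had differences of -0.04 and -0.19.

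Of the 3 genes that mark long-lived resident cells, *Folr2* and *Timd4* had negative differences against *Gata4* floxed hearts and *Lyve1* a positive one. *Timd4*, a receptor for phosphatidylserine on dying cells, read 5.96 and 6.07 in the cre hearts, 6.09 and 6.09 in the *Gata4* floxed hearts, 6.07, 5.87 and 5.96 in the *Gata4*-deleted hearts, 6.14 and 5.90 in the *Gata6* floxed hearts, and 5.94, 5.95 and 6.03 in the *Gata6*-deleted hearts. All hearts lay between 5.87 and 6.14, and the *Gata4*-deleted hearts were below both *Gata4* floxed hearts and overlapped with the other groups. The difference between *Gata4*-deleted and *Gata4* floxed hearts was -0.13 (SE 0.09, adjusted p = 0.755). *Lyve1*, a hyaluronan receptor that lymphatic endothelium also carries, read 8.02 and 8.09 in the cre hearts, 7.72 and 7.49 in the *Gata4* floxed hearts, 7.80, 7.79 and 7.92 in the *Gata4*-deleted hearts, 8.44 and 8.35 in the *Gata6* floxed hearts, and 7.64, 8.00 and 8.20 in the *Gata6*-deleted hearts. The *Gata4* floxed hearts were low and the *Gata6* floxed hearts the highest, so *Lyve1* was the single marker with a positive difference between *Gata4*-deleted and *Gata4* floxed hearts, of 0.23 (SE 0.15, adjusted p = 0.711). The 5 markers of lymphatic endothelium (*Prox1*, *Pdpn*, *Flt4*, *Reln*, *Mmrn1*) had mean log2 signals of 6.77 to 6.82 in cre and 6.82 to 6.93 in *Gata4* floxed hearts. They were 6.74 to 7.00 in *Gata4*-deleted, 6.68 to 6.78 in *Gata6* floxed and 6.84 to 6.85 in *Gata6*-deleted hearts. The part of lymphatic endothelium in the *Lyve1* readings was not tested.

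The chemokine receptors *Cx3cr1*, which responds to fractalkine, and *Ccr2*, which draws monocytes out of the blood, were both lower at an unadjusted p under 0.05 and both did not pass. *Ccr2* was among the dim probesets and read 4.20 and 4.03 in the cre hearts, 4.13 and 4.41 in the *Gata4* floxed hearts, 3.77, 3.89 and 3.87 in the *Gata4*-deleted hearts, 4.32 and 4.11 in the *Gata6* floxed hearts, and 4.34, 3.97 and 4.02 in the *Gata6*-deleted hearts. The *Gata4*-deleted hearts were the lowest 3, with 3.89 as the highest of them and 4.03 in the next heart, and all of these are low signals. Its log2 difference was -0.43 (SE 0.13, adjusted p = 0.32) against *Gata4* floxed hearts and that of *Cx3cr1* was -0.64 (SE 0.16, adjusted p = 0.2).

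Of the 4 complement genes, 1 passed against *Gata4* floxed hearts and all 4 were lower at an unadjusted p under 0.05. *C3ar1* encodes the receptor of the anaphylatoxin C3a and was the marker with the largest difference against *Gata4* floxed hearts. It read 6.88 and 7.00 in the cre hearts, 7.39 and 7.50 in the *Gata4* floxed hearts, 6.62, 6.80 and 6.56 in the *Gata4*-deleted hearts, 7.11 and 6.99 in the *Gata6* floxed hearts, and 6.96, 7.05 and 6.91 in the *Gata6*-deleted hearts. All *Gata4*-deleted hearts lay below all others and both *Gata4* floxed hearts above all others. It was lower by -0.78 (SE 0.09, adjusted p = 0.0171) against *Gata4* floxed hearts and by -0.49 (SE 0.07, adjusted p = 0.0195) against all controls. The first call was lost on leaving out any of its 5 hearts except the second *Gata4*-deleted heart (adjusted p = 0.026 to 0.16), and the second on leaving out the second cre heart, the second *Gata4* floxed heart or the first or the third *Gata4*-deleted heart (adjusted p = 0.0328 to 0.112). Against the cre hearts alone the difference was -0.28 (adjusted p = 0.307).

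The subunits of C1q, the recognition protein that starts the classical complement pathway, are made largely by macrophages. *C1qb* read 7.97 and 8.26 in the cre hearts, 8.36 and 8.39 in the *Gata4* floxed hearts, 8.12, 7.86 and 7.94 in the *Gata4*-deleted hearts, 8.53 and 8.21 in the *Gata6* floxed hearts, and 8.30, 8.06 and 8.17 in the *Gata6*-deleted hearts. The second and the third *Gata4*-deleted heart were the lowest of 12, and the first lay above one cre heart and one *Gata6*-deleted heart. The differences against *Gata4* floxed hearts were -0.39 for *C1qa* (SE 0.09, adjusted p = 0.186), -0.40 for *C1qb* (SE 0.13, adjusted p = 0.34) and -0.52 for *C1qc* (SE 0.12, adjusted p = 0.167). All 3 had the same sign and 0 passed.

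A set of 6 markers belongs to Fc receptors and to the ITAM pathway, in which adaptors with tyrosine motifs pass a signal from a surface receptor to the kinase SYK. *Syk* itself read 6.85 and 6.72 in the cre hearts, 6.82 and 6.81 in the *Gata4* floxed hearts, 6.33, 6.43 and 6.07 in the *Gata4*-deleted hearts, 6.91 and 7.02 in the *Gata6* floxed hearts, and 6.91, 7.21 and 7.22 in the *Gata6*-deleted hearts. The *Gata4*-deleted hearts were the lowest of 12, with 6.43 as the highest of them and 6.72 in the next heart, and 2 of the *Gata6*-deleted hearts were the highest. *Syk* was lower than in all controls by -0.58 (SE 0.10, adjusted p = 0.0314), and the call was lost on leaving out any 1 of the 9 hearts except the first *Gata6* floxed heart (adjusted p = 0.0394 to 0.132). Against *Gata4* floxed hearts the difference was -0.54 (SE 0.13, adjusted p = 0.167). *Fcer1g*, the signalling chain shared by Fc receptors, read 7.34 and 7.21 in the cre hearts, 7.44 and 7.37 in the *Gata4* floxed hearts, 6.99, 7.20 and 6.90 in the *Gata4*-deleted hearts, 7.71 and 7.36 in the *Gata6* floxed hearts, and 7.50, 7.35 and 7.71 in the *Gata6*-deleted hearts. Again the *Gata4*-deleted hearts were the lowest 3, the highest of them at 7.20 and the second cre heart at 7.21, and the differences were -0.37 against *Gata4* floxed hearts (SE 0.14, adjusted p = 0.42) and -0.37 against all controls (SE 0.11, adjusted p = 0.189). The adaptor *Tyrobp*, the Fc receptors *Fcgr1* and *Fcgr3* and the glucan receptor *Clec7a* had differences against *Gata4* floxed hearts of -0.41, -0.09, -0.21 and -0.19, with adjusted p from 0.316 to 0.849.

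Of the 8 markers of pattern recognition, lysosome and killing, 1 passed against *Gata4* floxed hearts and 6 were lower at an unadjusted p under 0.05. *Pld4* encodes an exonuclease of endolysosomes that degrades nucleic acids. It read 6.35 and 6.41 in the cre hearts, 6.77 and 6.88 in the *Gata4* floxed hearts, 6.11, 6.13 and 6.24 in the *Gata4*-deleted hearts, 5.98 and 6.04 in the *Gata6* floxed hearts, and 6.07, 6.20 and 6.05 in the *Gata6*-deleted hearts. The *Gata4* floxed hearts were above all others, and the deleted hearts of both lines and the *Gata6* floxed hearts lay together at the bottom. *Pld4* was lower by -0.66 (SE 0.08, adjusted p = 0.0158) against *Gata4* floxed hearts. That call was lost on leaving out any of its 5 hearts except the third *Gata4*-deleted heart (adjusted p = 0.0395 to 0.154), and against all controls the difference was -0.24 (SE 0.06, adjusted p = 0.124). Against the cre hearts alone it was -0.22 (adjusted p = 0.332).

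*Mpeg1*, which encodes the pore-forming protein perforin-2, set the hearts of the *Gata6* line apart from the rest. It read 6.58 and 6.36 in the cre hearts, 6.84 and 7.16 in the *Gata4* floxed hearts, 6.61, 6.40 and 6.25 in the *Gata4*-deleted hearts, 6.07 and 5.80 in the *Gata6* floxed hearts, and 6.02, 6.01 and 5.90 in the *Gata6*-deleted hearts. All 5 hearts of the *Gata6* line, floxed or deleted, lay between 5.80 and 6.07 and below all 7 other hearts, which lay between 6.25 and 7.16. Within the *Gata4* line the difference between deleted and floxed hearts was -0.58 (SE 0.14, adjusted p = 0.18). *Cd68*, a glycoprotein of late endosomes used to stain macrophages in tissue, read 7.31 and 7.42 in the cre hearts, 7.41 and 7.74 in the *Gata4* floxed hearts, 6.93, 7.11 and 7.12 in the *Gata4*-deleted hearts, 7.63 and 7.16 in the *Gata6* floxed hearts, and 7.16, 7.58 and 7.35 in the *Gata6*-deleted hearts. The *Gata4*-deleted hearts were the lowest 3 of 12, next to one heart of each *Gata6* group at 7.16, with differences of -0.53 against *Gata4* floxed hearts (SE 0.17, adjusted p = 0.324) and -0.40 against all controls (SE 0.13, adjusted p = 0.255).

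*Cd14*, the co-receptor for bacterial lipopolysaccharide, read 5.48 and 5.56 in the cre hearts, 5.82 and 5.50 in the *Gata4* floxed hearts, 5.52, 5.26 and 5.43 in the *Gata4*-deleted hearts, 5.33 and 5.52 in the *Gata6* floxed hearts, and 5.58, 5.54 and 5.72 in the *Gata6*-deleted hearts. The *Gata4*-deleted and *Gata4* floxed hearts overlapped, and the difference between them was -0.26 (SE 0.12, adjusted p = 0.565). The *Gata6*-deleted hearts lay above both *Gata6* floxed hearts and above all *Gata4*-deleted hearts. The lysozyme gene *Lyz2*, the protease gene *Ctss* and *Cybb*, the catalytic chain of the phagocyte NADPH oxidase, had differences of -0.57 (adjusted p = 0.19), -0.55 (adjusted p = 0.195) and -0.68 (adjusted p = 0.243), and *Aif1*, which encodes the calcium-binding protein IBA1, of -0.33 (adjusted p = 0.736).

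**Figure D3:**
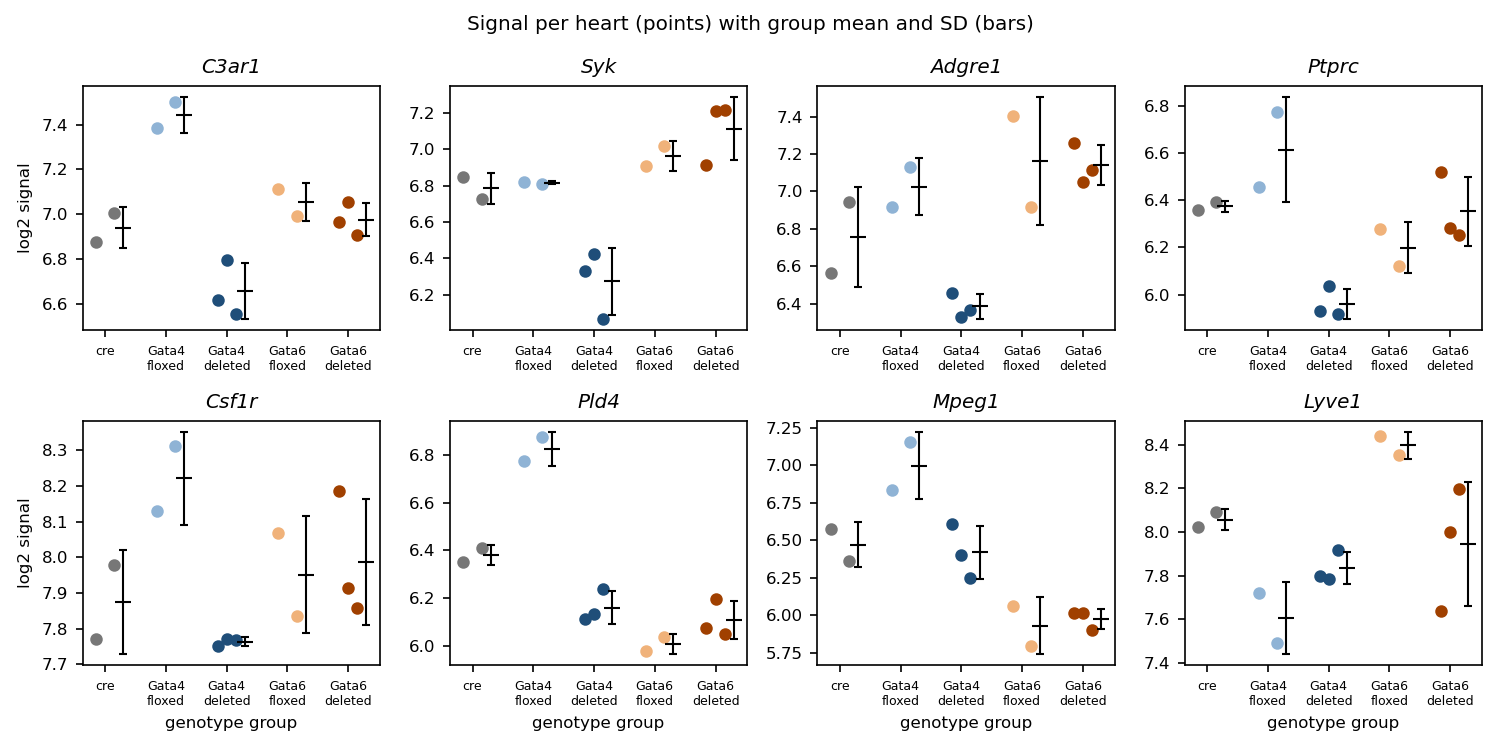
Log2 signal of 8 macrophage markers in each heart (points, coloured by genotype group) with the mean and SD of each group (black bars beside the points); axes differ between genes. *C3ar1*, *Syk*, *Adgre1* and *Ptprc* are lowest in the 3 *Gata4*-deleted hearts, and *Mpeg1* is lowest in the 5 hearts of the *Gata6* line. *Pld4* is highest in the *Gata4* floxed hearts and *Lyve1* in the *Gata6* floxed hearts.

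In *Gata6*-deleted hearts the markers read close to their floxed controls, though the *Gata6* floxed pair was itself widely spread. Against *Gata6* floxed hearts 0 of 35 markers were higher and 0 lower by limma (0.0% of all probesets in either direction), and at an unadjusted p under 0.05 there were 0 higher and 1 lower, where 2.39% and 2.52% of all probesets were. A t-test on each probeset alone gave 0 in either direction at an unadjusted p under 0.05 (2.2% of all probesets lower and 2.42% higher). The median was -0.02, 20 markers had negative differences (49.5% of all probesets), and groups did not overlap for 2 lower and 2 higher markers (9.23% and 9.89% of all probesets). The 1 marker at an unadjusted p under 0.05 was *Lyve1*, at -0.45 (SE 0.15, adjusted p = 0.886), with one *Gata6*-deleted heart at 7.64 and the others at 8.00 and 8.20. The SE of a single marker's difference lay between 0.08 for *Pld4* and 0.23 for *Aif1*, which sets the size that could be seen.

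The difference between the changes with each deletion was tested directly, and 0 of 35 markers passed in either direction (0.0169% of all probesets were higher and 0.0% lower). At an unadjusted p under 0.05, 18 markers were lower and 1 higher (3.09% and 3.16% of all probesets), 33 differences were negative (49.1% of all probesets), and the median was -0.43. *Pld4* came closest at -0.76 (SE 0.11, adjusted p = 0.169), followed by *C3ar1* at -0.71 (SE 0.13, adjusted p = 0.352) and *Ptprc* at -0.80 (SE 0.16, adjusted p = 0.409). *Lyve1* had the opposite sign, at 0.68 (SE 0.21, adjusted p = 0.647). No single marker was thus shown to respond differently to the 2 deletions.

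The deleted hearts were also compared with each other, where the control hearts enter only through the spread that the fit shares. In *Gata4*-deleted hearts 2 markers were lower than in *Gata6*-deleted hearts (0.686% of all probesets) and 0 higher (0.394%), with 14 lower and 1 higher at an unadjusted p under 0.05 (6.13% and 5.52%) and a median of -0.26 with 31 negative differences (48.3% of all probesets). The t-test gave 16 lower and 1 higher before adjustment (5.79% and 4.82%) and 0 after it (0.0% of all probesets). *Syk* was lower by -0.84 (SE 0.11, adjusted p = 0.00778) and stayed under the threshold on leaving out each of the 6 hearts (adjusted p = 0.00629 to 0.0407), but not with only the 2 groups in the fit (adjusted p = 0.0629). *Adgre1* was lower by -0.76 (SE 0.14, adjusted p = 0.0404), and this call was lost on leaving out any 1 of the 6 hearts (adjusted p = 0.0899 to 0.144). The 3 *Gata4*-deleted hearts lay below all 3 *Gata6*-deleted hearts for 21 markers (9.55% of all probesets) and above them for 1 (8.58%), *Mpeg1*, at 0.44 (SE 0.12, adjusted p = 0.169). With 3 hearts against 3, an exact permutation test of 1 marker cannot give a p below 0.1.

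The *Gata6*-deleted hearts did not differ from all 6 controls in any marker at an adjusted p under 0.05 (0.264% of all probesets were higher and 0.135% lower), with 1 higher and 4 lower at an unadjusted p under 0.05 (4.13% and 4.5%) and a median of -0.06 with 24 negative differences (51.7% of all probesets). By the t-test 1 was higher and 0 lower before adjustment (3.18% and 3.45%). *Mpeg1* at -0.49 (SE 0.11, adjusted p = 0.148) and *Pld4* at -0.30 (SE 0.06, adjusted p = 0.11) had the largest differences.

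The controls were not alike. Between *Gata4* floxed and *Gata6* floxed hearts 2 markers were higher in the *Gata4* line (0.101% of all probesets) and 0 lower (0.127%), with 8 higher and 1 lower at an unadjusted p under 0.05 (4.89% and 5.37%) and a median of 0.14. *Pld4* was higher by 0.82 (SE 0.09, adjusted p = 0.00616), a call lost without the second *Gata4* floxed heart (adjusted p = 0.0743), and *Mpeg1* by 1.07 (SE 0.15, adjusted p = 0.0298), a call lost without either *Gata4* floxed heart or without the second *Gata6* floxed heart (adjusted p up to 0.188). *Lyve1* had the opposite sign, at -0.79 (SE 0.16, adjusted p = 0.115). The differences of *Pld4* and *Mpeg1* between *Gata4*-deleted and *Gata4* floxed hearts thus rest on floxed hearts that themselves stood above the other controls. Between cre and floxed hearts 0 markers passed (0.0591% of all probesets were higher and 0.0366% lower), 0 were higher and 8 lower at an unadjusted p under 0.05 (4.62% and 3.71%), the t-test gave 1 lower and 0 higher before adjustment (2.34% and 3.88%), and the median was -0.15.

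Markers of other cells were read beside the macrophage genes, first in *Gata4*-deleted against *Gata4* floxed hearts. They were those of neutrophils (9 measured), T cells (8), NK cells (8), B cells (7), dendritic cells (9) and mast cells (8). The same was done for endothelium (12), lymphatic endothelium (5) and cardiomyocytes (10). Among all of these 0 genes passed (0.104% of all probesets were higher and 0.0787% lower). The medians of these lists lay between -0.08 and 0.08. The lists of neutrophils, T, NK, B, dendritic and mast cells had mean log2 signals below 5.63, the median of all probesets, in every heart. Medians near 0 from such dim readings do not show that these cells were unchanged. The mean log2 signal of the cardiomyocyte markers, the cells in which cre acted, was 12.75 to 12.78 in *Gata4*-deleted hearts and 12.79 to 12.86 in the other 9, so these hearts were the lowest 3 for this list too, by a far smaller amount. Fibroblast markers had a median of -0.21, with 0 of 10 past the threshold, 2 lower at an unadjusted p under 0.05 and *Col3a1*, a collagen gene, at -0.57 (adjusted p = 0.421). Their mean log2 signal was 9.08 and 9.46 in the *Gata4* floxed hearts, 8.96 to 9.14 in the *Gata4*-deleted hearts and 8.84 to 9.31 in the other 7, so the same second *Gata4* floxed heart was the highest, while against all controls their median was 0.00. Red cell markers (4 measured) had a mean log2 signal of 5.03 and 5.61 in *Gata4* floxed hearts, 4.81 to 5.07 in *Gata4*-deleted hearts and 4.90 to 5.25 in the other 7, with *Alas2*, the haem synthesis enzyme of red cells, at -1.13 (adjusted p = 0.32) against *Gata4* floxed hearts. The 4 monocyte markers measured had a mean signal of 5.13 and 5.23 in *Gata4* floxed hearts, 4.88 to 4.95 in *Gata4*-deleted hearts and 4.80 to 5.11 in the rest. The 4 platelet markers measured had a median of -0.20. Between the deleted groups the mast cell gene *Cpa3* (-0.66, SE 0.13, adjusted p = 0.0472) and the platelet gene *Pf4* (-0.53, SE 0.10, adjusted p = 0.0472) were lower in *Gata4*-deleted hearts, and both calls were lost on leaving out any 1 of the 6 hearts. The part of fibroblasts, red cells, platelets, mast cells, cardiomyocytes and blood monocytes in the macrophage result was not tested.

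**Figure D4:**
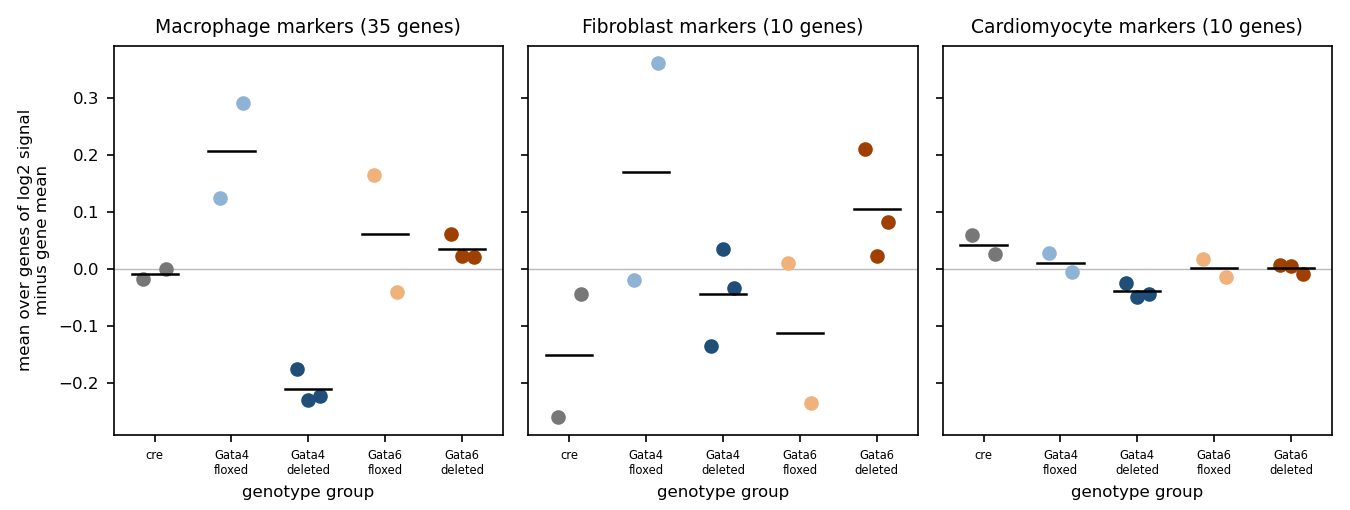
Mean over the genes of a list of the log2 signal minus the gene's mean, for each heart (points) by genotype group with the group mean (lines), for 35 macrophage, 10 fibroblast and 10 cardiomyocyte markers. Macrophage markers are lowest in the 3 *Gata4*-deleted hearts, at -0.23 to -0.18, whereas fibroblast markers in the same hearts lie inside the range of the controls and cardiomyocyte markers lie just below them.

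The ligands and partners of the macrophage genes were read from lists that held 219 measured genes, cell type markers included. Among colony stimulating factors, *Csf1*, which encodes the growth factor that binds CSF1R, read 8.05 and 8.53 in the cre hearts, 8.21 and 8.05 in the *Gata4* floxed hearts, 7.64, 7.55 and 7.45 in the *Gata4*-deleted hearts, 8.41 and 8.14 in the *Gata6* floxed hearts, and 8.26, 8.14 and 7.90 in the *Gata6*-deleted hearts. The 3 *Gata4*-deleted hearts were the lowest of 12. *Csf1* was lower by -0.69 (SE 0.12, adjusted p = 0.0406) than in all controls, a call that held in 1 of 9 fits with a heart left out, the one without the first cre heart (adjusted p = 0.0292 to 0.186), and by -0.58 (SE 0.16, adjusted p = 0.24) than in *Gata4* floxed hearts, which did not pass. *Il34*, the other ligand of the receptor, differed by 0.02 (adjusted p = 0.98) and -0.02 (adjusted p = 0.963). None of the other 7 genes of that list passed in any of the 8 comparisons.

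Lysosomal enzymes and membrane proteins (14 measured) had a median of -0.15 against *Gata4* floxed hearts, with 0 past the threshold and 5 lower at an unadjusted p under 0.05. *Ctsc*, the protease that activates granule enzymes, read 8.53 and 8.64 in the cre hearts, 8.17 and 8.50 in the *Gata4* floxed hearts, 7.98, 8.02 and 8.16 in the *Gata4*-deleted hearts, 8.65 and 8.66 in the *Gata6* floxed hearts, and 8.87, 8.80 and 8.80 in the *Gata6*-deleted hearts. The *Gata4*-deleted hearts were the lowest 3, with 8.16 as the highest of them and 8.17 in the first *Gata4* floxed heart. *Ctsc* was lower than in all controls by -0.47 (SE 0.08, adjusted p = 0.0314), which held in 3 of 9 fits with a heart left out (adjusted p = 0.0236 to 0.142), and lower than in *Gata6*-deleted hearts by -0.78 (SE 0.09, adjusted p = 0.00625), which held in 6 of 6.

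Toll-like receptors and inflammasome genes (17 measured) had a median of -0.22 against *Gata4* floxed hearts, with 1 past the threshold and 7 lower at an unadjusted p under 0.05. *Tlr6*, which recognises bacterial lipopeptides together with TLR2, read 5.12 and 5.31 in the cre hearts, 5.63 and 5.71 in the *Gata4* floxed hearts, 5.04, 5.08 and 5.07 in the *Gata4*-deleted hearts, 4.98 and 4.95 in the *Gata6* floxed hearts, and 4.94, 4.80 and 4.99 in the *Gata6*-deleted hearts. The *Gata4* floxed hearts stood above all others, as they did for *Pld4*. *Tlr6* was lower by -0.61 (SE 0.08, adjusted p = 0.0287) in *Gata4*-deleted hearts, which held in 0 of 5 fits with a heart left out (adjusted p = 0.0929 to 0.205), and higher by 0.70 (SE 0.09, adjusted p = 0.0215) in *Gata4* floxed than in *Gata6* floxed hearts, lost without either *Gata4* floxed heart or the second *Gata6* floxed heart (adjusted p up to 0.148). *Tlr7*, a receptor of endosomes for single-stranded RNA, had a difference of -0.64 (SE 0.18, adjusted p = 0.25) against *Gata4* floxed hearts.

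The genes of MHC class II, which present antigen to T cells, ordered the hearts in another way. The 7 genes measured had a median of -0.01 against *Gata4* floxed hearts and of -0.34 against *Gata6*-deleted hearts. *H2-Eb1*, a class II β chain, read 7.28 and 7.45 in the cre hearts, 6.06 and 6.50 in the *Gata4* floxed hearts, 6.41, 6.20 and 6.24 in the *Gata4*-deleted hearts, 6.90 and 7.85 in the *Gata6* floxed hearts, and 8.05, 7.76 and 7.57 in the *Gata6*-deleted hearts. All 5 hearts of the *Gata4* line were below the other 7, and *H2-Eb1* differed by 0.00 between *Gata4*-deleted and *Gata4* floxed hearts (SE 0.25, adjusted p = 0.999) and by -1.51 between *Gata4*-deleted and *Gata6*-deleted hearts (SE 0.23, adjusted p = 0.0154, held in 1 of 6 fits with a heart left out). As with *Mpeg1*, the 5 hearts of a single line stood apart from the other 7. For *Mpeg1* the *Gata4*-deleted hearts also lay below both *Gata4* floxed hearts, whereas for *H2-Eb1* these groups overlapped.

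Among the other partners 0 passed against *Gata4* floxed hearts: complement partners (9 measured, median -0.25), ITAM and Fc receptor partners (15 measured, median -0.15), myeloid transcription factors (10 measured, median -0.13), NADPH oxidase partners (5 measured, median -0.12), chemokine ligands (17 measured, median -0.10), genes for the engulfment of dead cells (12 measured, median -0.06) and genes of iron and haem handling (7 measured, median -0.16). *Cx3cl1*, which encodes fractalkine, the ligand of CX3CR1, was at -0.49 (SE 0.11, adjusted p = 0.167). The complement regulators *Cd59a* and *Serping1* passed in other comparisons. *Cd59a* was higher in *Gata4*-deleted hearts than in all controls by 1.10 (SE 0.09, adjusted p = 0.0023), but it was also lower in cre than in floxed hearts, by -1.37 (SE 0.11, adjusted p = 0.00531), and its difference against *Gata4* floxed hearts was 0.26 (SE 0.12, adjusted p = 0.547). *Serping1* was higher in *Gata4* floxed than in *Gata6* floxed hearts by 1.01 (SE 0.09, adjusted p = 0.00256). Neither had the pattern of the macrophage markers.

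Over all genes with 1 symbol outside the list, the 10 whose signals correlated most closely with the macrophage score over 12 hearts were *Nckap1l* (Pearson's r = 0.95), *Kctd12b* (0.95), *Dab2* (0.93), *Unc93b1* (0.93), *Nav1* (0.92), *Msr1* (0.91), *Apobec1* (0.91), *Fxyd5* (0.90), *Cd248* (0.89) and *Hcls1* (0.88), given as a description because the hearts share groups. *Nckap1l* encodes a haematopoietic subunit of the complex that drives actin branching, *Unc93b1* the protein that carries Toll-like receptors to endosomes, *Msr1* a macrophage scavenger receptor and *Hcls1* a cortactin-like protein of blood cells. These genes were chosen for likeness to a score that was lowest in *Gata4*-deleted hearts, so low readings there follow from the choice. *Nckap1l* read 6.77 to 6.82 in the *Gata4*-deleted hearts and 6.97 to 7.49 in the other 9, with no overlap, and *Msr1* 4.97 to 5.13 and 5.40 to 5.73. *Hcls1* overlapped, with 6.60 in the first *Gata4*-deleted heart and 6.49 in the second *Gata6* floxed heart. So did *Cd248*, with 6.89 in the first *Gata4*-deleted heart and 6.72 in the first cre heart. *Cd248*, a marker of stromal cells, was in the same 10.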

How the data were processed

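Total RNA of 12 whole mouse hearts had been labelled with a whole-transcript kit and hybridised to Affymetrix Mouse Gene 1.0 ST arrays, 1 array for each heart. The values are log2 signals of 35557 probesets that the authors made with RMA (background correction, quantile normalization and summary of probes) and deposited. The RMA software version, any filter and scan batches are not given in the sources used here. Another deposited table of relative expression had 12 columns whose names match no single sample, and none was used. The platform's annotation lists 23410 probesets, of which 21789 have 1 gene symbol, 1621 have several and 12147 others are not listed, and only probesets with 1 symbol were named, by the brightest one for each gene.

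Groups came from the genotype labels, and replicates are labelled biological. A model of group means over all 5 groups was fitted with limma 3.58.1 in R 4.3.3 without a filter (7 residual and 2.50 prior degrees of freedom), with Benjamini-Hochberg adjustment over all probesets and a threshold of 0.05. All 35 markers were tested in 8 comparisons, which share control hearts. Two-sided exact permutation tests were added for 3 hearts against 6. The markers given heart by heart are those that passed in any comparison, the 3 with the smallest p in each comparison of a deletion, and 9 chosen by role, *Ptprc*, *Adgre1* and *Syk* among them because the study selected them. The markers, lists and tests were chosen with earlier results of these data known. Tested on simulated data for *Gata4*-deleted against *Gata4* floxed hearts, on 35557 probesets, the fit found 78% of 2-fold and 28% of 1.5-fold changes. Alternatives were the normalization, centring, a filter on dim probesets, the prior, the summary of probesets, the samples in the fit, the control group, the threshold, the replicate number as a block, the t-test that the methods name, and leaving out each heart.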

Additional observations from a re-analysis of the deposited data

How the results depend on the processing

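Counts of macrophage markers at an adjusted p under 0.05 depended on the setting, while the medians of the markers kept their sign in *Gata4*-deleted hearts under every alternative run. Except with the cre hearts as the control, the number of all probesets called is not given beside the counts in this section. A change in a count is therefore not read as a result about the markers. With a filter on dim probesets, 4 markers were lower against *Gata4* floxed hearts (median -0.51) and 7 against all controls, 1 was lower in *Gata6*-deleted hearts against all controls, and 1 was lower in *Gata4* floxed than in *Gata6* floxed hearts. With the mean over a gene's probesets, so with fewer tests, the counts were 4 against *Gata4* floxed hearts, 8 against all controls, 1 for the difference between both deletions and 1 lower between the floxed lines. With a trended, robust prior 4 markers were lower against all controls. With only the groups compared in the fit, and so fewer samples, the counts were 0 against *Gata4* floxed hearts, 0 against all controls, 1 against *Gata6*-deleted hearts and 0 higher between the floxed lines. The methods' t-test, after adjustment, gave 0 in each of these 4. At an adjusted p under 0.1, 5 markers were lower against all controls, and under 0.01 the counts were 0 against *Gata4* floxed hearts, 0 against all controls, 1 against *Gata6*-deleted hearts and 1 higher between the floxed lines. With the cre hearts as the control of *Gata4*-deleted hearts, 0 markers were lower, where 139 of all probesets passed in either direction. The median was then -0.22, and with the mean of both kinds of control it was -0.31. *Spi1* changed sign, to 0.0825 with the cre hearts as the control. The cause was not tested in any of these. With the replicate number as a block, the counts were 0 against *Gata4* floxed hearts, 0 against all controls, 1 against *Gata6*-deleted hearts and 1 higher between the floxed lines. The numbers did not pair the hearts, since deviations of 21 pairs with the same number correlated between -0.10 and 0.11, with 1 pair over 0.1.

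Leaving out each heart in turn gave 0 to 1 lower markers against *Gata4* floxed hearts (median -0.57 to -0.36, groups that do not overlap for 30 to 32), 0 to 3 against all controls (median -0.33 to -0.25, 12 to 15), and 1 against *Gata6*-deleted hearts (median -0.27 to -0.23, 21 to 25). Leaving out a heart can only keep or raise the number of markers without overlap, and the same holds for all probesets. Those numbers are therefore no measure of stability. The median of the difference between both deletions ran from -0.49 to -0.26. Between the floxed lines 0 to 2 markers were higher, with medians from 0.0168 to 0.32. For *Gata6*-deleted against *Gata6* floxed hearts the median ran from -0.14 to 0.0874, against all controls from -0.08 to -0.02, and for cre against floxed hearts from -0.19 to -0.11. The *Gata4* floxed, *Gata6* floxed and cre groups held 2 hearts each, so the lone heart of a group was then assumed to vary like the other groups. Of 70 values of the markers given heart by heart with an unadjusted p of at least 0.05, 35 changed sign under 1 or more alternatives and 0 passed.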
